A study of Homo sapiens with 24 samples.

Results

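Binding of S100A8 and S100A9 was examined at the genes for WNT ligands, Frizzled (FZD) receptors, the LRP5 and LRP6 co-receptors, and the ROR1 and ROR2 receptors. Members were genes that GENCODE 44, lifted to hg19, annotates as protein-coding and whose symbol is WNT or FZD plus a digit, together with these 4 named receptors. They numbered 33 of 20098 genes on chromosomes 1 to 22 and X and comprised 19 ligands, 10 Frizzled genes, 2 LRP genes, and 2 ROR genes. WNT ligands are secreted lipid-modified glycoproteins that bind the cysteine-rich domain of Frizzled receptors. Together with LRP5 or LRP6, they block the degradation of β-catenin, which then acts with TCF/LEF factors in the nucleus, whereas ROR1 and ROR2 take part in β-catenin–independent signaling, in particular by WNT5A. In the breast, WNT signals guide ductal branching and maintain epithelial stem cells, and the mouse genes Wnt1, Wnt3, and Wnt10b are insertion sites of mouse mammary tumor virus.

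The cells were MCF-10A, a nontransformed human breast epithelial line, carrying ER-Src, an Src oncoprotein fused to the ligand-binding domain of the estrogen receptor. They also stably expressed Flag-tagged S100A8 or Flag-tagged S100A9, calcium-binding proteins known mainly as secreted cytokines. They received 4-hydroxytamoxifen (TAM, 1 μM), which activates the Src fusion and transforms them, or ethanol (EtOH) as vehicle, in either case for 24 hours. Flag ChIP-seq peak lists of 11 biological replicates were used, 3 for each combination of protein and treatment except S100A8-Flag in EtOH, which had 2. All groups share a single parental line and carry both ER-Src and a tagged transgene.

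A peak was counted when its −log10 q was at least 7. It was assigned to a gene when its summit lay at the promoter (1500 bp upstream to 250 bp downstream of a protein-coding transcript start), otherwise in the gene body, and otherwise within 20 kb of the gene. The EtOH lists held 1853 to 4609 such peaks and the TAM lists 21518 to 40735. The lists give no read numbers, so that the depth is unknown and fewer reads cannot be told apart from weaker binding. As a check of the labels, a summit over a coding exon of S100A9, sequence that the S100A9-Flag transgene also carries, was present in 6 of 6 S100A9-Flag lists and in 1 of 5 S100A8-Flag lists. No list of either protein had a summit over a coding exon of S100A8.

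Peaks at the 33 genes were more numerous after TAM, but they made up a similar share of all peaks. With S100A8-Flag, 10 and 15 peaks were found in EtOH and 63, 65, and 43 in TAM, and with S100A9-Flag 10, 2, and 14 in EtOH and 57, 55, and 95 in TAM. The groups do not overlap, and the mean was 10.2 ± 5.12 peaks (SD, n = 5) with EtOH and 63.0 ± 17.5 peaks (SD, n = 6) with TAM. Per 10000 peaks of the same library, the mean was 24.9 ± 8.66 (SD, n = 5) with EtOH and 22.8 ± 2.34 (SD, n = 6) with TAM. On this scale, the EtOH values spanned 10.8 to 32.5 and the TAM values, from 19.98 to 26.95, all lay within that range. S100A9-Flag EtOH replicate 2, the list with the fewest peaks, had the lowest values on both scales.

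**Figure D1:**
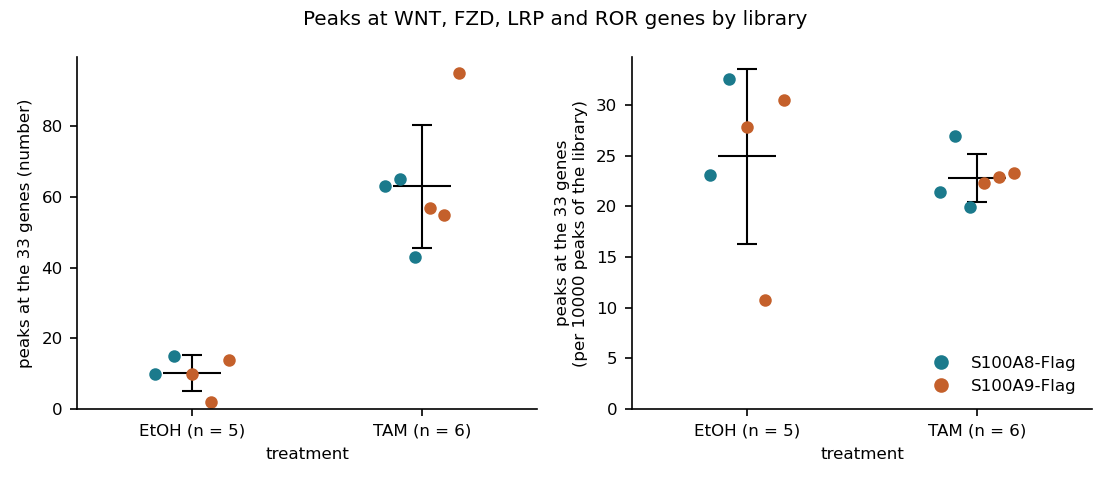
Number of peaks at the WNT, FZD, LRP, and ROR genes in each library (left, count; right, count per 10000 peaks of that library) by treatment. Each point is a library, colored by the tagged protein, and the bars show the mean and SD; the numbers separate the treatments (10.2 against 63.0 on average) and the normalized values do not (24.9 against 22.8).

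Over the 11 libraries, the peaks summed to 443 when counted gene by gene, and 288 of these lay at 10 genes. These were the ligands WNT9A, WNT3A, WNT5B, WNT7A, WNT7B, WNT6, and WNT3, and the receptors LRP5, ROR1, and ROR2. Gene length, whose part in these numbers was not tested, spans 2.343 to 407.494 kb among the 33, with the ROR genes the longest at 387.138 and 407.494 kb. Neighboring members share sites, since 4 merged sites lie within 20 kb of both WNT6 and WNT10A, 2 of both WNT1 and WNT10B, and 1 of both WNT3 and WNT9B. A peak at such a site counted for each gene, and the values of these pairs are therefore not independent. WNT2 and WNT16 had 1 peak each in a single TAM library and were not tested.

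TAM and EtOH libraries were compared gene by gene by exact permutation of the treatment within each protein. Peaks in at least 2 libraries were present at 31 of the 33 members, compared with 83.4% of all genes. Of these 31, 8 rose in TAM (25.8%) and 0 fell, at an adjusted p below 0.05 over all genes tested. Over all 16771 genes tested, 29.4% rose and 0.0% fell, so that the share among the members was near the background. The 8 were the ligands WNT9A, WNT5B, WNT3, WNT10A, WNT2B, and WNT8A (6 of 17 ligands tested), the co-receptor LRP5 (1 of 2), and ROR1 (1 of 2), and no Frizzled gene was among them (0 of 10). Each had an exact permutation p of 0.01, the smallest that the 200 arrangements allow, and an adjusted p of 0.034. An adjusted p below 0.05 requires that more than 20% of all genes reach this smallest p, and these calls therefore depend on the change in peak numbers across the genome. When any single library other than S100A8-Flag TAM replicate 2 or 3 was left out, 0 members passed, and without these 9 and 11 did. With a library left out, the smallest possible p is above 0.01, and a larger share of all genes must reach it. With limma on log2(peaks + 1), 20 of the 31 rose, beside 77.4% of all genes. Per 10000 peaks of the library, no member passed the test, the difference was positive for 19 of the 31 and negative for 12, and 3 of the 8, WNT9A, WNT5B, and LRP5, turned negative. The numbers of peaks given below are not scaled to the library unless stated.

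The difference was positive for all 31 members, as it was for 99.4% of all genes tested, and its median was 1.00 peak for the members and 1.5 peaks for all genes. The filter itself bears on this. Of the 33 members, 15 had no peak in any EtOH library, and all of these but WNT2 and WNT16 passed it through TAM alone. Every TAM library was above every EtOH library for 6 of the 31 members (19.4%), compared with 25.4% of all genes.

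WNT9A, a ligand best known from joint formation, had the most peaks of any member. S100A8-Flag libraries had 4 and 3 in EtOH and 6, 6, and 5 in TAM, and S100A9-Flag libraries had 1, 0, and 1 in EtOH and 4, 5, and 5 in TAM. The groups meet at 4 peaks, and the mean difference over the proteins was 3.08 peaks, the call given above. Its neighbor WNT3A, the prototypical activator of β-catenin signaling, had 1 and 3 in EtOH and 8, 3, and 3 in TAM with S100A8-Flag, and 3, 0, and 1 in EtOH and 4, 5, and 6 in TAM with S100A9-Flag. The difference of 3.17 peaks did not pass (exact permutation p = 0.03, adjusted p = 0.0585), and the groups meet at 3 peaks.

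WNT5B, a ligand of β-catenin–independent signaling, had 0 and 2 peaks in EtOH and 4, 4, and 5 in TAM with S100A8-Flag. With S100A9-Flag, it had 0, 0, and 2 in EtOH and 3, 4, and 10 in TAM. All TAM libraries were above all EtOH libraries, with a difference of 4.17 peaks. WNT7A and WNT7B, paralogous ligands known for blood vessel growth in the brain, were alike in EtOH, where S100A8-Flag replicate 2 had 2 peaks at each and no other library had any. In TAM, WNT7A had 6, 4, and 2 peaks with S100A8-Flag and 4, 5, and 7 with S100A9-Flag, and WNT7B had 5, 4, and 2 and 4, 3, and 7. For either gene, the lowest TAM library equals the highest EtOH library, and the test gave an adjusted p of 0.0516 from an exact permutation p of 0.02.

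WNT3, a ligand of gastrulation and limb growth, had no peaks with S100A8-Flag in EtOH and 3, 2, and 2 in TAM. With S100A9-Flag, it had 1, 0, and 0 in EtOH and 3, 3, and 4 in TAM, and the groups do not overlap (difference 2.67 peaks). WNT10A, known from tooth and hair development, had 1 EtOH peak, in S100A9-Flag replicate 1, and 1, 2, and 2 peaks with S100A8-Flag and 3, 2, and 5 with S100A9-Flag in TAM. The groups meet at 1 peak, and the difference was 2.33 peaks. WNT6, its neighbor, had 1 peak in S100A9-Flag EtOH replicates 1 and 3, and in TAM 3, 4, and 0 peaks with S100A8-Flag and 3, 3, and 6 with S100A9-Flag. It did not pass (exact permutation p = 0.03, adjusted p = 0.0585), and all its peaks lay outside the gene body and the promoter.

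Among ligands with fewer peaks, WNT2B and WNT8A had none in the 5 EtOH libraries and at least 1 in each of the 6 TAM libraries. WNT2B had 3, 2, and 1 TAM peaks with S100A8-Flag and 2 in every S100A9-Flag replicate, and WNT8A, a ligand of the early embryo, had exactly 1 in each TAM library. WNT5A, the principal ligand of the ROR receptors, had none in EtOH, and in TAM 0, 3, and 1 with S100A8-Flag and 2, 1, and 3 with S100A9-Flag. It did not pass (exact permutation p = 0.03, adjusted p = 0.0585), and S100A8-Flag TAM replicate 1 was level with the EtOH libraries. WNT11, which directs cell movements in gastrulation, had 1 EtOH peak, in S100A9-Flag replicate 2, and in TAM 0, 1, and 2 peaks with S100A8-Flag and 1 in each S100A9-Flag replicate. The mammary-linked ligands WNT1 and WNT10B had 1 EtOH peak each and at most 3 and 2 peaks in a TAM library, with adjusted p values of 0.281 and 0.337 by the same permutation test. WNT4, a ligand of mammary branching, was called in S100A9-Flag TAM libraries alone, with 1, 1, and 2 peaks. WNT9B and WNT8B had no EtOH peak and summed to 4 and 2 peaks in TAM.

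**Figure D2:**
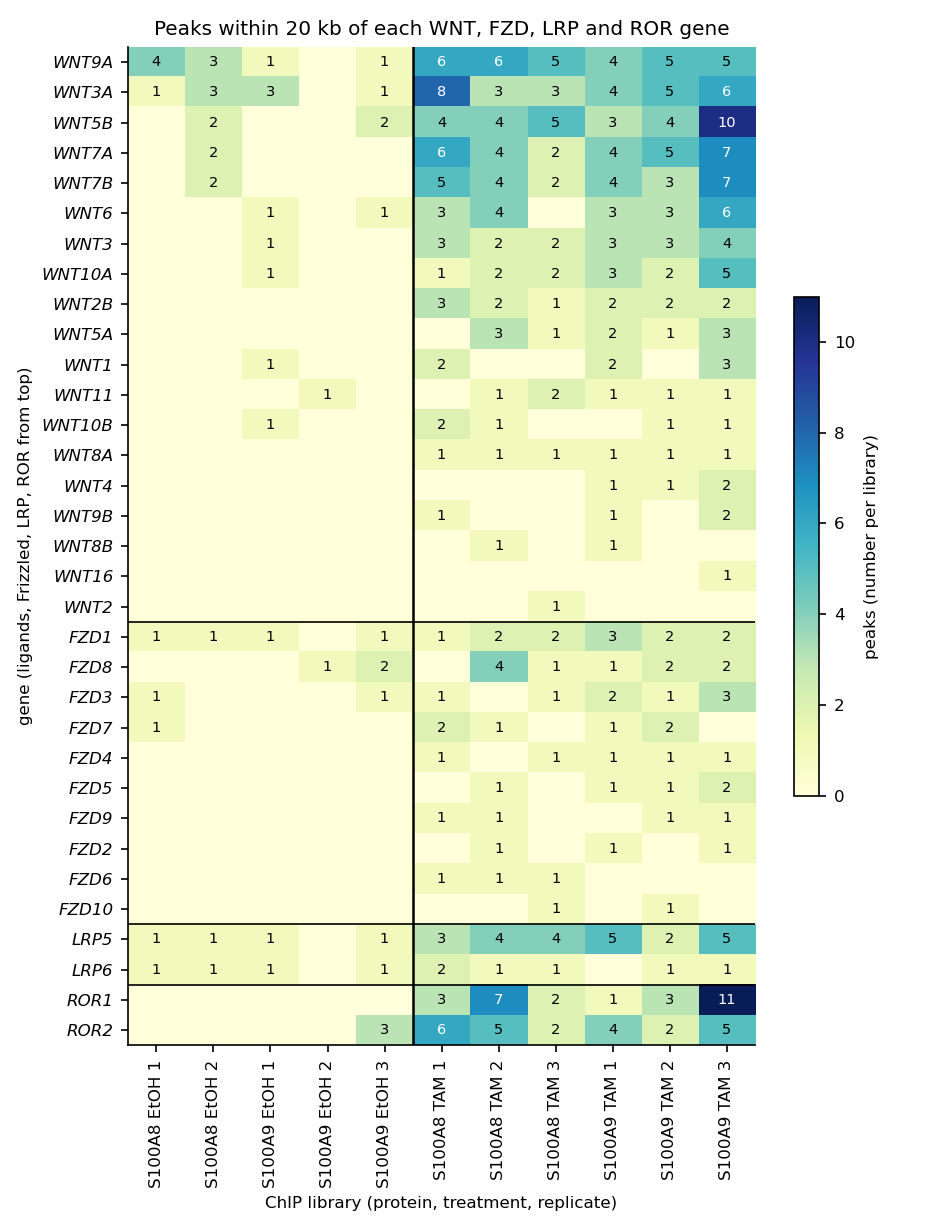
Number of peaks (color and digit, blank for 0) at the promoter, in the body, or within 20 kb of each gene (rows, grouped as ligands, Frizzled, LRP, and ROR) in each of 11 libraries (columns, EtOH left of the line and TAM right of it). The EtOH columns hold 0 to 4 peaks per gene and the TAM columns up to 11, with the highest numbers at ROR1, WNT5B, and WNT3A.

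The receptor genes divided by the position of their peaks. ROR1, a tyrosine kinase–like receptor of WNT5A, had no peak in EtOH, and in TAM 3, 7, and 2 with S100A8-Flag and 1, 3, and 11 with S100A9-Flag. The spread among TAM libraries was wide, and 21 of its 27 peaks lay in the gene body. ROR2, its paralog, had 3 peaks in S100A9-Flag EtOH replicate 3 and none in the other EtOH libraries, and in TAM 6, 5, and 2 with S100A8-Flag and 4, 2, and 5 with S100A9-Flag. It did not pass (exact permutation p = 0.02, adjusted p = 0.0516), and 25 of its 27 peaks lay in the gene body. With S100A8-Flag, LRP5 had 1 peak in each EtOH library and 3, 4, and 4 in TAM, and 1, 0, and 1 in EtOH and 5, 2, and 5 in TAM with S100A9-Flag. The groups do not overlap (difference 3.00 peaks), and no LRP5 peak lay at its promoter. LRP6, in contrast, had promoter peaks only. It had 1 peak in each EtOH library but S100A9-Flag replicate 2, and in TAM 2, 1, and 1 with S100A8-Flag and 0, 1, and 1 with S100A9-Flag, with no detectable difference between the treatments (0.167 peaks, exact permutation p = 0.96, adjusted p = 0.971).

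Of the Frizzled genes, FZD1 was called in EtOH most often, with 1 peak in each EtOH library but S100A9-Flag replicate 2, where it had none. In TAM, it had 1, 2, and 2 peaks with S100A8-Flag and 3, 2, and 2 with S100A9-Flag (exact permutation p = 0.03, adjusted p = 0.0585). FZD8 had 1 and 2 peaks in S100A9-Flag EtOH replicates 2 and 3 and none in the other EtOH libraries, compared with 0, 4, and 1 in TAM with S100A8-Flag and 1, 2, and 2 with S100A9-Flag. FZD3 had 1 peak in each of 2 EtOH libraries, and in TAM 1, 0, and 1 with S100A8-Flag and 2, 1, and 3 with S100A9-Flag. FZD7 had 1 peak in S100A8-Flag EtOH replicate 1, and in TAM 2, 1, and 0 and 1, 2, and 0. FZD8, FZD3, and FZD7 thus overlap between the treatments, with adjusted p values of 0.258, 0.215, and 0.304 by the permutation test. FZD4, a receptor of norrin as well as of WNT ligands, FZD5, FZD9, FZD2, FZD6, and FZD10 had no EtOH peak. In TAM, FZD4 had 1, 0, and 1 with S100A8-Flag and 1 in each S100A9-Flag replicate, FZD5 had 0, 1, and 0 and 1, 1, and 2, and FZD9 had 1, 1, and 0 and 0, 1, and 1. FZD2 and FZD10 were called in 3 and 2 TAM libraries. FZD6, a receptor of planar cell polarity, had 1 peak in each S100A8-Flag TAM library and none in the S100A9-Flag libraries.

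Counted in each library, peaks of Frizzled genes lay mostly at promoters, and those of ligands mostly did not. Summed over the libraries, 42 of 68 Frizzled peaks were at promoters (61.8%), compared with 28 of 284 ligand peaks (9.86%), 10 of 37 LRP peaks, and 4 of 54 ROR peaks. The median gene length was 5.7405 kb for the Frizzled genes and 26.657 kb for the ligands, and gene length therefore moves with this difference, whose part in it was not tested. A site called in several libraries counts in each of them, and the FZD1 promoter site alone was called in 10. By merged site, promoter sites were the minority at the Frizzled genes too. The share of promoter peaks over all genes was not computed.

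**Figure D3:**
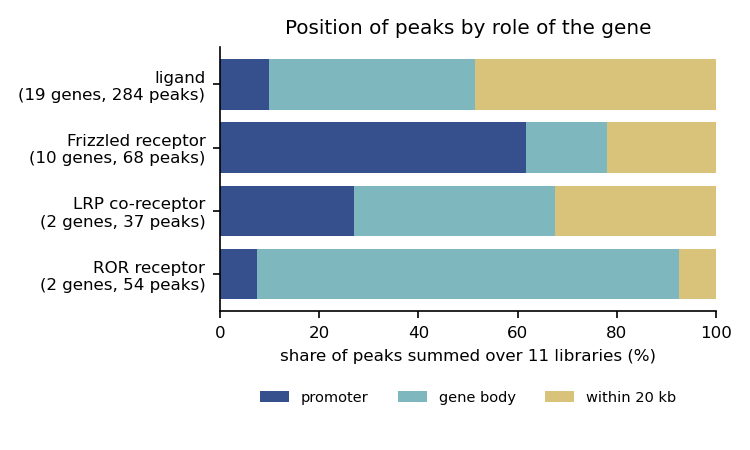
Share of peaks (percent of the peaks summed over the 11 libraries) at the promoter, in the gene body, and within 20 kb for each role. Promoter peaks make up 61.8% for the 10 Frizzled genes and 9.86% for the 19 ligands.

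A gene was given a confident promoter site in a condition when at least 2 of its libraries had a promoter peak, at the same position or not. In EtOH, 2 members, FZD1 and LRP6, had such a site with S100A8-Flag and the same 2 with S100A9-Flag, which is 6.06% of the members. The share of all genes was 4.61% for S100A8-Flag, 5.69% for S100A9-Flag, and 8.44% for either. In TAM, 13 members did (39.4%), compared with 48.3% of all genes, and the 4 conditions together added no further member (all genes, 48.4%). They were FZD1, FZD3, FZD4, FZD5, FZD7, FZD8, FZD9, LRP6, ROR1, WNT2B, WNT5A, WNT7A, and WNT11, that is, 7 of 10 Frizzled genes and 4 of 19 ligands. With S100A9-Flag, all 13 had one (all genes, 43.0%), and with S100A8-Flag 7 did (all genes, 36.7%), namely FZD1, FZD4, FZD7, FZD8, LRP6, WNT2B, and WNT11. WNT5A met the rule with S100A9-Flag although its promoter peaks in TAM replicates 1 and 3 lay at different merged sites. These were chr3:55521000-55521423 and chr3:55521602-55522086, so that no WNT5A promoter site recurred among the TAM replicates of either protein. The number in TAM fell from 13 to 8 without S100A9-Flag TAM replicate 3, the library with the most peaks, and was 0 when each list was reduced to its 1853 top peaks.

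In single libraries, the share of members with a promoter peak was 3.03 to 12.1% with EtOH and 21.2 to 45.5% with TAM. For all genes, it was 5.97 to 12.2% with EtOH and 33.3 to 49.0% with TAM. The members were below all genes in 9 of the 11 libraries, and above them in S100A8-Flag EtOH replicate 1 and S100A9-Flag TAM replicate 2. This holds for promoters only, since for any peak within 20 kb the members were above all genes in 7 of the 11 libraries. By role, 0 to 1 ligands had a promoter peak in an EtOH library and 2 to 6 in a TAM library, whereas 0 to 3 Frizzled genes had 1 in EtOH and 3 to 7 in TAM.

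**Figure D4:**
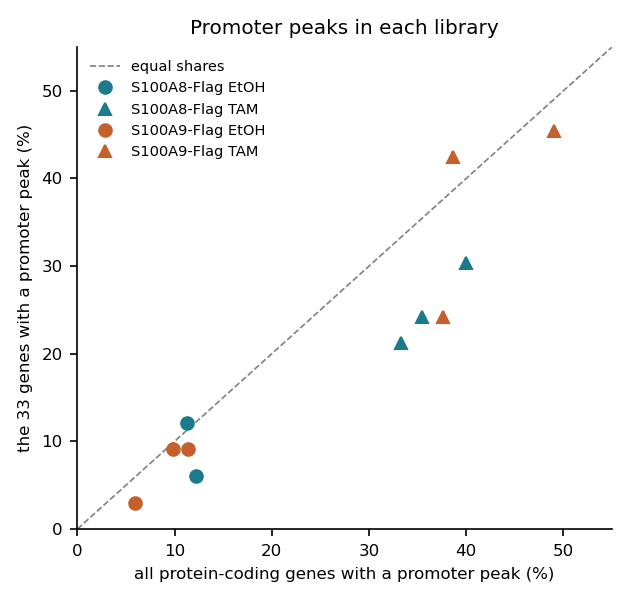
Percent of the WNT, FZD, LRP, and ROR genes with a promoter peak (vertical) against the percent of all protein-coding genes with one (horizontal), one point per library, with circles for EtOH and triangles for TAM. Of the 11 points, 9 lie below the line of equal shares.

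Whether a promoter was called was tested by the same permutation for the 15 members with promoter peaks in at least 2 libraries. None passed (0 of 15, beside 0.0% of 10794 genes), and 2265 genes and 2 members, FZD4 and WNT2B, had an unadjusted p under 0.05. The requirement that more than 20% of the genes tested reach the smallest p applied here too. FZD4 and WNT2B were called in 5 of 6 TAM libraries and 0 of 5 EtOH libraries (exact permutation p = 0.03, adjusted p = 0.191). The filter bears on this test as well. FZD4, WNT2B, FZD5, FZD9, ROR1, WNT5A, WNT7A, and WNT7B had no EtOH promoter peak and passed it through TAM alone. They could therefore show only a rise. The FZD4 promoter site (chr11:86666697-86667323) has its summit 0.72 kb upstream of the gene start, between genes. Its fold enrichment over input, as the authors' MACS2 gave it, was 9.02 and 14.4 in the S100A8-Flag TAM replicates 1 and 3 and 9.02, 10.5, and 5.07 in the S100A9-Flag TAM replicates. Peaks below the threshold on q, called weaker here whatever their fold enrichment, were listed there in S100A8-Flag TAM replicate 2 (6.32) and in 2 EtOH libraries (6.65 and 5.94). The WNT2B site (chr1:113008618-113009096) has its summit 0.268 kb upstream. Its fold enrichment in the libraries that called it was 4.11 and 8.62 in S100A8-Flag TAM replicates 1 and 2 and 5.28, 10.7, and 4.59 in the S100A9-Flag TAM replicates. Peaks below the threshold on q were listed in the S100A9-Flag EtOH replicates at 4.57, 6.70, and 6.39, and 2 of these exceed 3 of the 5 TAM values. At both promoters, peaks were thus also listed in EtOH, below the threshold.

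Peaks of different libraries that shared 1 bp or more were joined into 170 sites at the members, of which 84 were called in at least 2 libraries and 86 in 1. By the summit, 27 sites were at promoters of the members, 87 in gene bodies, and 56 in the flanks, and 6 of the sites outside the promoters lay at the promoter of another gene. No site at the members was called in all 11 libraries, as were 105 of 70990 merged sites across the genome, and 9 were called in all 6 TAM libraries. Of the 84 sites in at least 2 libraries, all were called in at least 2 TAM libraries. In TAM, 77 were called with both proteins, 1 with S100A8-Flag alone, and 6 with S100A9-Flag alone. No EtOH library called 56 of them, but at 31 of these a weaker EtOH peak was listed.

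The site called most often at a ligand lies in an intron of WNT9A, with calls in 4 EtOH and 6 TAM libraries. Its fold enrichment was 11.04 and 11.2 in EtOH and 15.2, 6.98, and 13.0 in TAM with S100A8-Flag. With S100A9-Flag, it was 7.43, 4.02 (not called), and 8.78 in EtOH and 11.2, 17.4, and 11.5 in TAM. The values overlap, since S100A8-Flag TAM replicate 2 lies below 4 of the EtOH values. A further WNT9A intron site (chr1:228122178-228123195) and a site downstream of the gene (chr1:228103350-228103990) were each called in both S100A8-Flag EtOH libraries, in no S100A9-Flag EtOH library, and in all 6 TAM libraries. The 3 EtOH libraries of S100A9-Flag had weaker peaks of 4.82 and 4.95 in 2 replicates at the first and of 3.02, 6.89, and 5.15 at the other.

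In an intron of WNT3A (chr1:228200952-228201417), 6506 bp from the start, a site was called in 3 EtOH and 6 TAM libraries. The fold enrichment was 7.78 and 7.30 in EtOH and 12.2, 7.06, and 21.3 in TAM with S100A8-Flag, and 4.80, 5.99, and 6.99 in EtOH and 14.0, 13.7, and 10.2 in TAM with S100A9-Flag. All S100A9-Flag TAM values were above all EtOH values, and S100A8-Flag TAM replicate 2 was among the EtOH values. Ranked by fold enrichment within each library, the site past the end of WNT5B stood highest among these, with a mean percentile of 85.7 (chr12:1771078-1771485). It was called in S100A9-Flag EtOH replicate 3 (8.10) and in all 6 TAM libraries (9.60 to 18.4). In an intron of WNT7B (chr22:46364773-46365620), 3511 bp from the nearest start, a site was called in S100A8-Flag EtOH replicate 2 (7.36) and in all 6 TAM libraries (5.66 to 15.0). An LRP5 intron site (chr11:68121727-68122361) was called in S100A8-Flag EtOH replicate 1 (6.01) and in all 6 TAM libraries (5.12 to 11.8).

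The FZD1 promoter site (chr7:90893443-90894285) has its summit 53 bp downstream of the start, in the untranslated region. It was called in 4 EtOH libraries (8.03 to 12.6) and 6 TAM libraries (6.16 to 13.6). The LRP6 promoter site (chr12:12419665-12420483), with its summit 3 bp from the start, was called in 4 EtOH libraries (7.56 to 9.64) and 5 TAM libraries (6.82 to 16.4). At these promoters, the EtOH values lay within the TAM range. A site in the flank of LRP5 (chr11:68227265-68227827) lies at the promoter of PPP6R3, a phosphatase subunit gene, and had its highest fold enrichment in an EtOH library (13.2, S100A9-Flag replicate 3) compared with 5.07 to 10.2 in the 5 TAM libraries that called it. These values are ratios to the input of each library and were not tested between libraries.

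**Figure D5:**
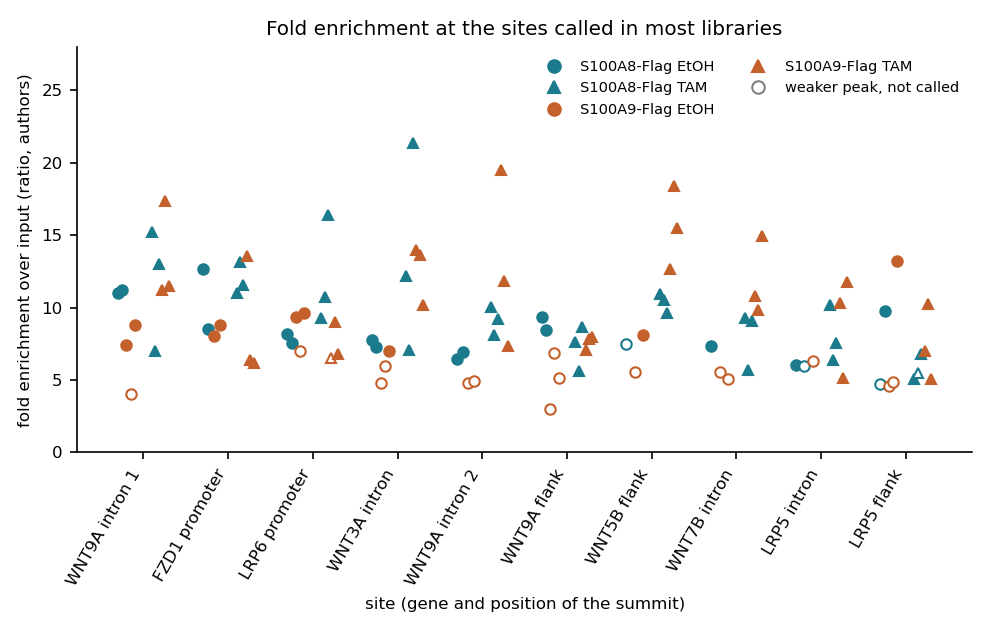
Fold enrichment over input (ratio) at the 10 sites of the members that were called in most libraries, one symbol per library with a listed peak, with circles for EtOH and triangles for TAM, filled where the peak was called and open where it was weaker. EtOH values at the FZD1 and LRP6 promoters lie within the TAM range, and at the WNT3A intron site TAM values reach 21.3.

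Sites called in EtOH and in no TAM library numbered 8 of 36 EtOH-called sites (22.2%), compared with 14.0% of all merged EtOH-called sites in the genome. Each was called in 1 library. In S100A9-Flag EtOH replicate 1, these were an LRP5 intron site, a site between WNT1 and WNT10B, and 2 WNT3A intron sites, and in S100A9-Flag EtOH replicate 3, they were 2 ROR2 intron sites, an FZD3 intron site, and a site downstream of FZD8. The site with the highest −log10 q among these lies in an intron of WNT3A (chr1:228202287-228202612), with a fold enrichment of 8.85 in S100A9-Flag EtOH replicate 1 and −log10 q of 14.5. Weaker peaks were listed there in 3 other EtOH libraries and in 3 TAM libraries (4.5 to 4.68).

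The sequences at sites outside promoters are shown because the AP-1 motif, TGACTCA or TGAGTCA on either strand, was the most frequent of those searched there. Each is 101 bp of the plus strand of hg19 centered on the summit, with the motif in capitals. They were printed only where the stretch holds a motif. Those at the WNT5B, WNT7B, and downstream WNT9A sites hold none and are not printed. The same applies to the flanking LRP5 site, which lies at the promoter of PPP6R3. At the WNT7B site, AP-1 matches within the wider window of 100 bp on each side of the summit. The sites shown with the AP-1 motif are the further intron site of WNT9A at chr1:228122549-228122649 and the LRP5 intron at chr11:68122071-68122171. The WNT3A intron site at chr1:228201155-228201255 has TTCAAAG at its summit, which is the TCF/LEF motif CTTTGAA on the other strand.
WNT9A intron: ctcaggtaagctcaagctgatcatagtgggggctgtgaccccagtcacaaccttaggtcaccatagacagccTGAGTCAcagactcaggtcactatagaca
LRP5 intron: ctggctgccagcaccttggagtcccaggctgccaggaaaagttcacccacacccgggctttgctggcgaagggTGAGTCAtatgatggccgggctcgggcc
WNT3A intron: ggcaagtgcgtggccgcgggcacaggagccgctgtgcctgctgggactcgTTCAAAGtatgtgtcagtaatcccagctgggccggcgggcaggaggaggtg

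Motifs were searched without mismatches within 100 bp of the summit of the sites called in at least 2 libraries, on both strands, and matches of different motifs may overlap. Of 63 sites of the members outside any promoter, 19 had AP-1 (30.2%), compared with 33.8% of 27522 such sites in the genome. CTCF, matched by its consensus, was present at 13 (20.6%, compared with 12.6%), and TCF/LEF (CTTTGAT or CTTTGAA) at 3 (4.76%, compared with 4.52%). At 21 sites that lie at a promoter, of a member or of another gene, AP-1 was present at 0 (6.39% of 11071 promoter sites in the genome). KLF/SP1 (CCCCGCCC) was present at 6 (28.6%, compared with 23.7%), and ETS (CGGAAG) at 3 (14.3%, compared with 25.8%). These windows had a median GC content of 71.1%, compared with 66.7% for all promoter sites. The promoters of WNT2B (chr1:113008845-113008945) and FZD4 (chr11:86667107-86667207) are shown for their calls in TAM alone, and were chosen after their values were seen. The capitals mark the KLF/SP1 motif, which begins 1 bp before the summit at WNT2B, and the FZD4 stretch printed has none, although KLF/SP1 and NF-kB match within the wider window of 100 bp on each side of its summit.
WNT2B promoter: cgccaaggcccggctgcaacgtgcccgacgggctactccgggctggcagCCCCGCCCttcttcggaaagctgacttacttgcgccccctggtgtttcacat
FZD4 promoter: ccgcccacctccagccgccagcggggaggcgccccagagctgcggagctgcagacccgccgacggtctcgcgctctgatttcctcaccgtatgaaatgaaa

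S100A8-Flag and S100A9-Flag did not differ detectably at any member. With the protein permuted within each treatment, 0 of 31 members and 0 of 16771 genes passed (0.0% in either direction). The requirement that more than 20% of all genes reach the smallest p applied here too, so a difference at fewer genes could not pass. An unadjusted p under 0.05 by this permutation was obtained for 97 genes (771 with limma, of which 0 passed). The only member among the 97 was WNT9A, with a mean of 4.58 peaks over the S100A8-Flag treatments and 2.67 over the S100A9-Flag treatments (exact permutation p = 0.03, adjusted p = 1). WNT9A had 3.5 and 0.667 peaks on average in EtOH and 5.67 and 4.67 in TAM with S100A8-Flag and S100A9-Flag, respectively. FZD6 in S100A8-Flag TAM libraries alone and WNT4 in S100A9-Flag TAM libraries alone each had a p of 0.1 by exact permutation. The difference between TAM and EtOH was itself not detectably different between the proteins, with 0 of 31 members and 0.0% of genes called. The same limit applied to this test. An unadjusted p under 0.05 was obtained for 258 genes (1194 with limma) and 0 members, whose smallest p was 0.1 by exact permutation.

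Other genes of the WNT pathway were compared in the same way. Of 47 genes in 7 lists, 42 had peaks in at least 2 libraries, and 15 of these rose in TAM (35.7%, all genes 29.4%) and 0 fell. By list, 6 of 8 nuclear genes rose (TCF7, TCF7L1, TCF7L2, BCL9, BCL9L, and PYGO2), 5 of 9 cytoplasmic genes (AXIN1, APC, GSK3A, CSNK1A1, and CTNNB1, which encodes β-catenin), 3 of 9 genes of the R-spondin axis, which controls the turnover of Frizzled at the cell surface (RSPO1, LGR6, and RNF43), and KREMEN2 among 4 other receptors. No gene passed among PORCN, WLS, and NOTUM, which formed a list together. None passed among 6 of 11 secreted antagonists tested, such as DKK1 and SFRP1, or among 3 feedback genes that include AXIN2. The largest difference was that of LGR6, an R-spondin receptor, which had 3 and 4 peaks in EtOH and 9, 9, and 7 in TAM with S100A8-Flag, and 4, 1, and 2 in EtOH and 11, 10, and 12 in TAM with S100A9-Flag (difference 6.75 peaks). All its TAM libraries were above all EtOH libraries. BCL9L, a β-catenin cofactor, and TCF7L2, a DNA binding partner of β-catenin, followed among the called genes with differences of 6.17 and 4.33 peaks. PTK7, a receptor of planar polarity, and DVL2, which transmits the signal from Frizzled, had differences of 4.75 and 4.5 peaks that did not pass (exact permutation p = 0.02, adjusted p = 0.0516). With 1 library left out, 0 to 18 of the pathway genes passed. Per 10000 peaks of the library, 0 of the 42 passed, and the difference was positive for 21 and negative for 21.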

How the data were processed

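The authors mapped the ChIP-seq reads with Bowtie2 (build hg19), retained unique alignments, and ran MACS2 separately on every ChIP sample and its matching input. Replicates were not pooled, and tool versions are not given in the sources used here. The deposited lists give each peak's fold enrichment over input (a ratio), its −log10 q value, and its summit, and reach to q = 0.05. Depth is unknown. The other 13 samples (Pol II and inputs) were not analyzed here.

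Genes and starts were those of GENCODE 44 lifted to GRCh37, on chromosomes 1 to 22 and X. Peaks with −log10 q of at least 7 were assigned by summit. Peaks per gene, or promoter calls, were compared by exact permutation over libraries within the other factor (200 arrangements, two-sided by doubling the smaller tail), with Benjamini-Hochberg adjustment over all genes with peaks in at least 2 libraries. The permutation test was tested on simulated data. limma 3.58.1 (R 4.3.3) and the other alternatives are given in the closing section. Replicate lists shared at most 0.00834% of peaks with identical ends. Motifs were read from GRCh37, and sequences are printed for 5 sites, with others not reported here. Values in every library are given for the 10 members with most peaks and those with a confident promoter site. Sites described singly are the 10 called in most libraries and those called in EtOH alone. The members, gene lists, and tests were chosen with earlier results of these data known.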

Additional observations from a re-analysis of the deposited data

How the results depend on the processing

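The count of members that rose in TAM (8) was 5 at −log10 q of at least 10, 24 within 50 kb, 20 with limma, and 0 within 5 kb, with the 1853 top peaks of each library, per 10000 peaks, or with genes called or not called. The count of other WNT pathway genes (15) was 25 with every peak as deposited, 30 within 50 kb, 34 with limma, and 0 under the same 4 settings. Without 1 library, the counts ranged from 0 to 11 and from 0 to 18. They were 0 without any library except S100A8-Flag TAM replicate 2 (9 members) or 3 (11 members), and the smallest p possible with a library left out was 0.0167 to 0.025. Leaving out peaks at promoters of other genes, chosen after seeing the data, gave 7 members. The counts for promoters, proteins, and the interaction were 0 under every alternative run. With the replicate number as a block, 0 members and 0 pathway genes passed, since the smallest p is then 0.0625. For same-numbered EtOH and TAM libraries, the correlations of their deviations from the condition means lay between −0.0307 and 0.0727. Differently numbered libraries were not compared, so that these values do not decide whether the libraries were paired.

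Mean peaks per library (EtOH 10.2, TAM 63.0) were 62.0 and 172.0 with every peak as deposited, 5.0 and 39.0 at −log10 q of at least 10, 17.2 and 94.0 within 50 kb, and 24.9 and 22.8 per 10000 peaks. In TAM, the mean was 43.3 within 5 kb and 4.5 with equal top peaks, and without 1 library the means ranged from 9.0 to 12.2 in EtOH and 56.6 to 67.0 in TAM. Members with a confident promoter site numbered 12 (EtOH) and 20 (TAM) with every peak as deposited, 7 in EtOH with 1 library required, and in TAM 8 at −log10 q of at least 10, 0 with equal top peaks, and 7 with every library required (8 to 13 without 1 library).

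The difference turned negative with equal top peaks for WNT9A (−0.417), WNT3A (−0.5), FZD8 (−0.5), LRP5 (−0.417), LRP6 (−0.167), WNT7A (−0.0833), and FZD1 (−0.333). Besides these, only ROR2 and WNT5B kept peaks in at least 2 libraries under that setting, and their difference did not turn negative. The remaining members were not tested there. Per 10000 peaks, it was negative for WNT9A (−2.81), WNT3A (−2.21), FZD8 (−0.985), LRP5 (−0.52), WNT11 (−0.500), WNT5B (−0.0364), LRP6 (−1.58), WNT10B (−0.171), WNT1 (−0.0967), FZD7 (−0.191), FZD1 (−1.18), and FZD3 (−0.483). None of these passed the test, and the cause was not tested. Since no read numbers are given, depth cannot be told apart from binding in these counts.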
